A study of Mus musculus with 9 samples.

Results

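Homeostatic microglia identity genes are genes that mark resting microglia of the healthy brain. Some of them tell microglia apart from other macrophages, but not all are specific to microglia. The 10 genes described here are Tmem119, Cx3cr1, Fcrls, Gpr34, Sall1, Olfml3, Siglech, Sparc, Selplg and Mertk, taken by name from a table of 55906 genes, and all 10 had a row in it. The study sequenced RNA of BV2, a wildtype mouse microglial line made permanent by transformation, in 3 libraries of cells given lipopolysaccharide with a treatment named Pilo (LPS+Pilo), 3 given lipopolysaccharide alone (LPS) and 3 untreated (Control). Lipopolysaccharide, a component of the bacterial outer membrane, is the standard inflammatory stimulus for microglia. The labels used here state no dose, no time and no full name for Pilo. The series asks how Pilo changes the inflammatory response of microglia, and its title names the M3 muscarinic receptor and microglial quiescence, the resting state that these genes mark. The libraries are called biological replicates, but separate cultures are not stated, so p-values measure the spread between these libraries.

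In the brain the homeostatic programme is held by the lineage factor PU.1, by the zinc-finger factor Sall1 and by TGF-beta signalling from the surrounding tissue, and it is lost when microglia are cultured or exposed to inflammatory stimuli. Many of its genes encode surface proteins that sense neighbouring cells. Cx3cr1 is the receptor for the neuronal chemokine fractalkine, Gpr34 a receptor for lysophosphatidylserine, and Mertk a receptor tyrosine kinase that recognises dying cells through the bridging proteins Gas6 and protein S. BV2 cells grow as a single immortalized line without neurons or astrocytes.

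Levels are given as TPM, a share of all transcripts that corrects for transcript length, so levels of different genes can be compared. In bulk RNA fewer cells expressing a gene and less of its RNA per cell cannot be told apart. Tests were run with limma on log2(TPM + 1) for the 11260 genes that reached 1 TPM in 3 or more libraries, and a gene was called at a Benjamini-Hochberg adjusted p under 0.05. Differences are given on the log2(TPM + 1) scale, which understates the change of genes near 1 TPM. Of the 10 members, 5 passed this filter (Mertk, Selplg, Tmem119, Cx3cr1 and Fcrls) and 5 did not. Fcrls reached 1 TPM only in the 3 Control libraries, so it entered the test through the group in which it was high.

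Between 10726 and 11123 genes reached 1 TPM per library, and the sequencing depth is unknown. Pearson correlations of log2(TPM + 1) between libraries ran from 0.971 to 0.986 within groups and from 0.961 to 0.983 between groups. All 14 pan-myeloid genes of a lineage list were tested, with Tyrobp at 657.41 to 1295.64 TPM, Cd68 at 975.57 to 1218.86 TPM and Spi1, which encodes PU.1, at 236.4 to 278.51 TPM. Aif1, the gene of the microglial marker IBA1, was low at 0.07 to 1.36 TPM. The neuronal gene Snap25, the astrocyte gene Aqp4, the oligodendrocyte gene Mog, the endothelial gene Cldn5 and the fibroblast gene Dcn were listed at 0 in all 9 libraries. Other genes of the same marker lists were expressed, among them Tubb3 (164.04 to 456.74 TPM) and Syn1 (4.98 to 13.66 TPM) of the neuronal list, Aldoc (46.46 to 59.34 TPM) of the astrocyte list, Mbp (3.94 to 6.57 TPM) of the oligodendrocyte list, and Flt1 (12.7 to 25.38 TPM) and Vwf (2.25 to 7.59 TPM) of the endothelial list. The ubiquitous genes Tbp (6.09 to 13.16 TPM) and Hprt (73.95 to 109.69 TPM) were above 0 in every library.

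Promoter windows (250 bases before to 50 after a transcript start) were found for 7 of the 10 members in RefSeq on GRCm38.p6. They are shown for the member that was lower in both treated groups than in Control (Fcrls), for the member that was lower than in Control with LPS+Pilo (Cx3cr1), and for a member near 0 (Siglech), each read 5′ to 3′ on the gene's strand. Capitals mark the letters GAGGAA, the core of the PU.1 motif, and CAGACA, a SMAD motif, or their reverse complements TTCCTC and TGTCTG.
Fcrls, chr3:87263475-87263774, minus strand: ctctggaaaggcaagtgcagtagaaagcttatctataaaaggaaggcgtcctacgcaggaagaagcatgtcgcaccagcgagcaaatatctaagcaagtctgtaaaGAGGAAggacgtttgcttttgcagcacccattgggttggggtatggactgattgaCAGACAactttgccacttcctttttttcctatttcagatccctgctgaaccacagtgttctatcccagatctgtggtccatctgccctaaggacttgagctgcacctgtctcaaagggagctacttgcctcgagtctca
Cx3cr1, chr9:120068247-120068546, minus strand: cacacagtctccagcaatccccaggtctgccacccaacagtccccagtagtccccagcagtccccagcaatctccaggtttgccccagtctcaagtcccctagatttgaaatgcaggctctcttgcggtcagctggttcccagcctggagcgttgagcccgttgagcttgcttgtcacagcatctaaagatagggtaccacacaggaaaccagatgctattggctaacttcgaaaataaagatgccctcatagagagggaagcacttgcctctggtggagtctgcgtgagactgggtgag
Siglech, chr7:55767934-55768233, plus strand: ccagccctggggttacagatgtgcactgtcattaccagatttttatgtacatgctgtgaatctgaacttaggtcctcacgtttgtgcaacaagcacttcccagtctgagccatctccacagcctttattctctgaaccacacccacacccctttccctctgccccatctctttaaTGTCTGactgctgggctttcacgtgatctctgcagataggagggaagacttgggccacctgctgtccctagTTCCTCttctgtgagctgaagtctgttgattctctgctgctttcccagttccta

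The PU.1 letters stood in the windows of 2 of the 7 genes, Fcrls and Siglech, against 28.3% of all 32851 windows in the RefSeq table. The SMAD letters stood in those of 3 of the 7, Fcrls, Siglech and Sparc, against 21.0% of all windows. The AP-1 letters TGACTCA, searched with TGAGTCA, stood in none of the 7 and in 5.2% of all windows. Members were counted by gene, with a match in any window of the gene, whereas the shares are by window. Sall1 had several windows, so these counts and shares are unlike measures. The Cx3cr1 window held none of these letters, and the Fcrls and Siglech windows held the same 2 kinds of match although only Fcrls was measured above 0.1 TPM. No motif overlapped another in the windows shown.

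The members spanned a wide range of levels. Mertk was the most abundant, with a mean of 396 TPM over the 9 libraries, above 96.3% of the genes tested. Selplg, the gene of the P-selectin glycoprotein ligand through which leukocytes roll on endothelium, followed at 61.0 TPM, above 81.2% of them. Tmem119, a transmembrane protein gene used as a marker of parenchymal microglia, averaged 2.76 TPM and Cx3cr1 averaged 2.49 TPM, above 18.1% and 16.1% of the genes tested. Fcrls, an Fc receptor-like gene, averaged 0.899 TPM. Mertk alone made up 74.7% to 89.2% of the summed TPM of the 10 members, and Mertk and Selplg left 0.719% to 4.08% to the other 8. A sum over the members is therefore a measure of Mertk.

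Sall1 and Siglech were absent from this line by the limit used here, under 0.1 TPM in all 9 libraries. Sall1, the factor that holds the microglial programme in mice, was listed at 0 in every LPS+Pilo and LPS library and at 0, 0.01 and 0 TPM in Control replicates 1 to 3. Siglech, a sialic acid-binding lectin gene whose product signals through the adaptor encoded by Tyrobp, was at 0 in every LPS+Pilo and LPS library and at 0.05, 0 and 0 TPM in Control replicates 1 to 3. The adaptor gene itself was among the abundant genes of the line.

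Gpr34, Olfml3 and Sparc were low, which was set as under 1 TPM in at least 7 of the 9 libraries without being absent. Gpr34 was listed at 0 in all 3 LPS+Pilo libraries, at 0, 0.03 and 0 TPM in LPS and at 0.2, 0.23 and 0.06 TPM in Control. All 3 Control libraries were thus above every treated library, at levels under the filter. With every gene above 0 in any library tested, the difference was -0.20 ± 0.05 with LPS (limma, adjusted p = 0.0893) and -0.22 ± 0.05 with LPS+Pilo (adjusted p = 0.0615) against Control, and neither passed. Gpr34 lies within Cask on the opposite strand in GENCODE M21, and Cask was at 1.42 to 3.98 TPM. No source used here states whether the counting used strand, so reads of the 2 genes may be mixed.

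Olfml3, which encodes a secreted olfactomedin-like protein, was above 0 in all 9 libraries, at 0.05, 0.07 and 0.06 TPM in LPS+Pilo, 0.09, 0.06 and 0.04 TPM in LPS and 0.14, 0.07 and 0.06 TPM in Control. Its groups overlapped. Sparc, a secreted matricellular protein gene that fibroblasts and microglia express, was at 0, 0.16 and 0 TPM in LPS+Pilo, at 0 in all 3 LPS libraries and at 0.05, 0.13 and 0 TPM in Control. The fibroblast genes Col1a1, Col1a2 and Col3a1 reached at most 0.03 TPM in any library.

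**Figure D1:**
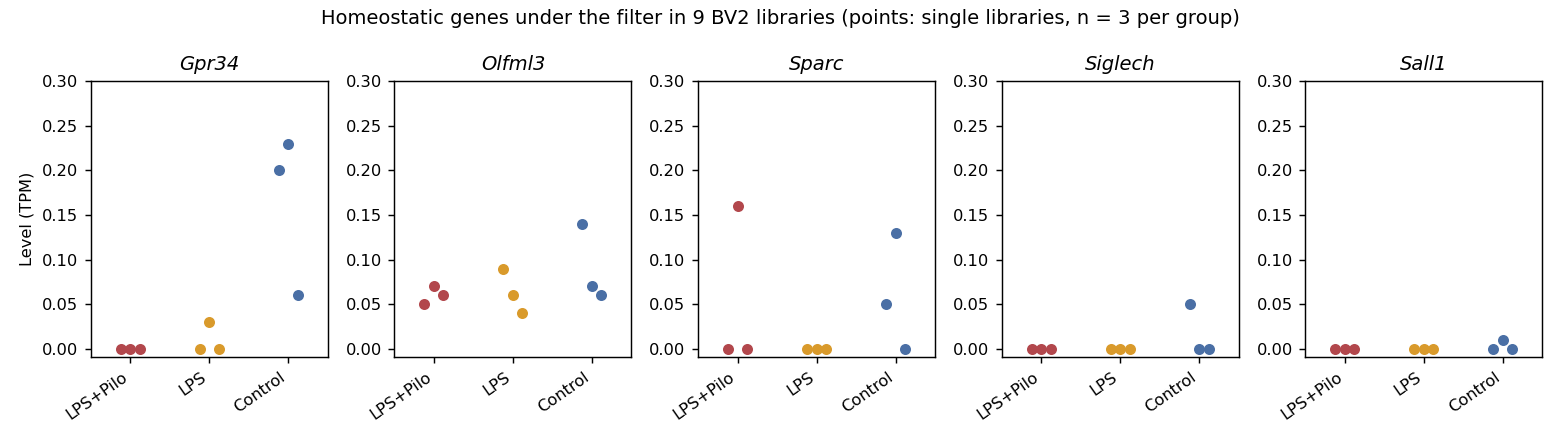
TPM (vertical axis, the same linear scale in each panel) of the 5 members that did not pass the filter, in the LPS+Pilo, LPS and Control libraries, with 1 point per library. No point exceeds 0.23 TPM, and Gpr34 is the gene whose Control points all lie above the treated ones.

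The comparison of LPS with Control asked how the members responded to the inflammatory stimulus. Of the 5 tested members 1 was higher (Selplg), 1 lower (Fcrls) and 3 did not pass, with a median difference of 0.24 against 0.07 over all genes tested. In the same comparison 7.76% of the 11260 genes were called, 464 higher and 410 lower, 4.12% and 3.64% of those tested. At an unadjusted p under 0.05 there were 3 of the 5 (22.7% of all genes). The groups did not overlap in 2 of the 5 (24.2% of all genes), Fcrls included, which passed the filter through Control. Under quantile normalization the split of all genes was 614 higher and 902 lower.

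Fcrls was at 0.5, 0.39 and 0.52 TPM in LPS replicates 1 to 3, against 2.43, 1.55 and 1.37 TPM in Control replicates 1 to 3. Every LPS library was below every Control library, which held for 13.1% of all genes in the lower direction. For Fcrls this follows from the filter, which it passed through Control alone. Fcrls averaged 0.470 ± 0.0700 TPM in LPS and 1.78 ± 0.567 TPM in Control (SD, n = 3 each). It fell by 0.90 ± 0.17 on the log2(TPM + 1) scale (SE; limma, adjusted p = 0.0118). With every gene that was above 0 in any library tested, so that the filter did not admit it, the adjusted p was 0.0171. A pseudocount of 0.1, which understates low genes less, gave a difference of -1.69. Without any one Control library Fcrls dropped under the filter and was not tested. No annotated gene overlaps Fcrls in GENCODE M21.

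Selplg was at 67.76, 68.39 and 63.61 TPM in LPS, against 52.94, 52.35 and 56.48 TPM in Control. The groups did not overlap, which held for 11.2% of all genes in the higher direction. Selplg averaged 66.6 ± 2.60 TPM in LPS and 53.9 ± 2.23 TPM in Control (SD, n = 3 each), and rose by 0.30 ± 0.08 (SE; limma, adjusted p = 0.0426). The call was lost without any one library other than LPS replicate 3. Leaving out LPS+Pilo replicates 1, 2 and 3 in turn gave limma adjusted p of 0.0668, 0.0699 and 0.0749, leaving out LPS replicates 1 and 2 gave 0.118 and 0.164, and leaving out Control replicates 1, 2 and 3 gave 0.0743, 0.139 and 0.0995. It was also lost with median-ratio scaling of the libraries (0.24, adjusted p = 0.162), and all its adjusted p lay between 0.0244 and 0.164.

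Mertk was at 427.92, 302.32 and 523.87 TPM in LPS, against 185.93, 405.64 and 223.54 TPM in Control. Control replicate 2 lay above LPS replicate 2, so the groups overlapped. The difference was 0.67 ± 0.28 (SE; limma, adjusted p = 0.192). Without Control replicate 2 it was 1.00 with a limma adjusted p of 0.0286, so that this library decided the call. All its adjusted p lay between 0.0286 and 0.431. In GENCODE M21 Mertk overlaps 2 annotated genes. Gm14011, on the opposite strand, was at 0 in every library, and the snoRNA gene Gm23172, on the same strand, has no TPM listed.

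Tmem119 was at 2.72, 3.05 and 3.05 TPM in LPS, against 2.73, 2.15 and 2.16 TPM in Control, with LPS replicate 1 just below Control replicate 1. The difference was 0.24 ± 0.13 (95% interval -0.06 to 0.54; limma, adjusted p = 0.327). Cx3cr1 was at 2.63, 3.22 and 2.88 TPM in LPS, against 4.57, 2.71 and 2.97 TPM in Control. Control replicate 1 stood above the other 8 libraries, and the remaining values of the 2 groups were interleaved. The difference of Cx3cr1 was -0.15 ± 0.18 (95% interval -0.55 to 0.24; limma, adjusted p = 0.635), and it was 0.02 without Control replicate 1 (adjusted p = 0.934; range 0.246 to 0.934 over the alternatives).

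**Figure D2:**
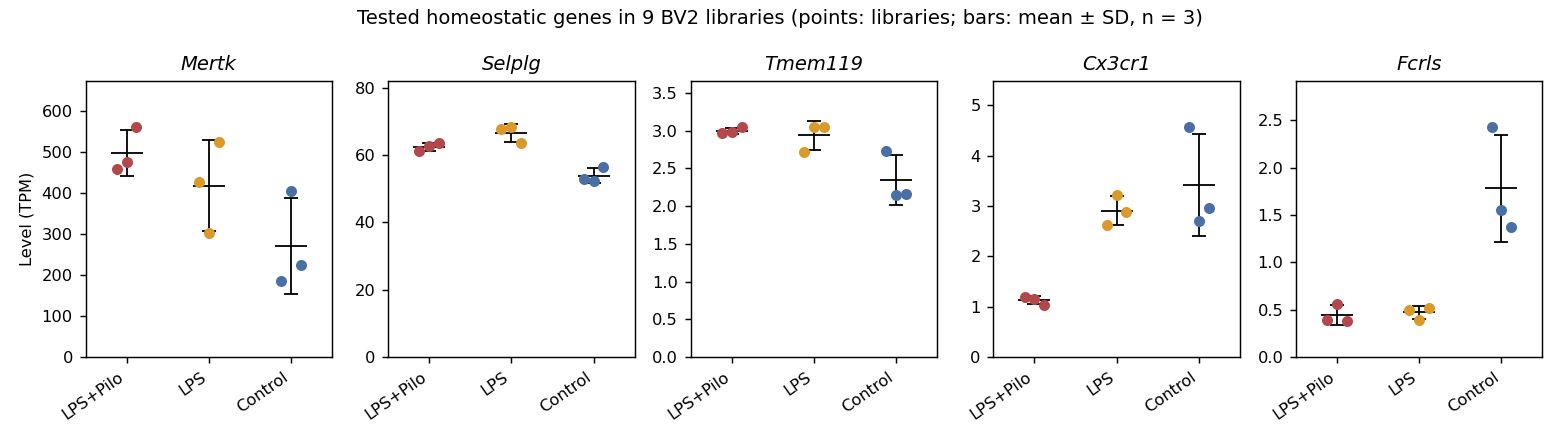
TPM (vertical axes, linear, a separate scale per gene) of the 5 tested members in the LPS+Pilo, LPS and Control libraries, with 1 point per library and bars for the mean ± SD (n = 3). Cx3cr1 is lowest in the LPS+Pilo libraries, at 1.04 to 1.2 TPM, and Fcrls is highest in the Control libraries, at 1.37 to 2.43 TPM.

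Setting LPS+Pilo against LPS addressed the effect of Pilo on stimulated cells. It called 0 of the 5 tested members with limma, where 5 of the 11260 genes (0.0444%) passed, 1 higher (0.00888%) and 4 lower (0.0355%). At an unadjusted p under 0.05 it found 1 of the 5, Cx3cr1, where 6.76% of all genes were found. Groups stood apart without overlap for 0 of the 5 in the higher direction (5.58% of all genes). In the lower direction they did so for 2, Cx3cr1 and Selplg (6.63% of all genes), Selplg by a narrow margin. The median difference was -0.03 over the 5 members and -0.05 over all genes tested.

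Cx3cr1 was at 1.2, 1.15 and 1.04 TPM in LPS+Pilo, against 2.63, 3.22 and 2.88 TPM in LPS. Every LPS+Pilo library was below every LPS library, which held for 6.63% of all genes in the lower direction. Cx3cr1 averaged 1.13 ± 0.0819 TPM in LPS+Pilo and 2.91 ± 0.296 TPM in LPS (SD, n = 3 each). The difference was -0.87 ± 0.18 (SE; 95% interval -1.27 to -0.48; limma, unadjusted p = 0.000635). It did not pass adjustment over all genes (adjusted p = 0.265; range 0.0915 to 0.852 over the alternatives, none of which called it). With a pseudocount of 0.1, which understates low genes less, the difference was -1.29.

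Selplg was at 61.35, 62.62 and 63.58 TPM in LPS+Pilo, all below the lowest LPS library by a narrow margin, with a difference of -0.09 ± 0.08 (95% interval -0.26 to 0.08; limma, adjusted p = 0.884). Mertk was at 458.61, 475.19 and 561.61 TPM in LPS+Pilo and its values overlapped those of LPS (0.28 ± 0.28, 95% interval -0.34 to 0.91, adjusted p = 0.902). Tmem119 was at 2.97, 2.98 and 3.05 TPM in LPS+Pilo, with a difference of 0.02 from LPS (95% interval -0.28 to 0.32, adjusted p = 0.987). Fcrls was at 0.39, 0.56 and 0.38 TPM in LPS+Pilo, with a difference of -0.03 from LPS (95% interval -0.41 to 0.35, adjusted p = 0.988). The level of Fcrls in LPS+Pilo thus lay among the LPS values and under the Control values.

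**Figure D3:**
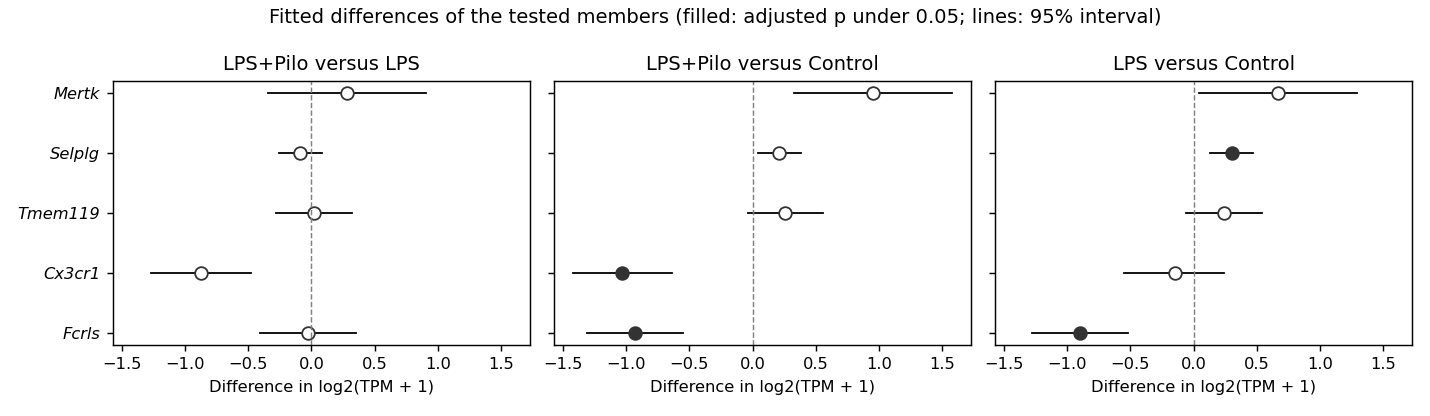
Fitted differences in log2(TPM + 1) (horizontal axes) of the 5 tested members in LPS+Pilo versus LPS, LPS+Pilo versus Control and LPS versus Control, with 95% intervals from limma. Filled points mark adjusted p under 0.05, which are Cx3cr1 and Fcrls in LPS+Pilo versus Control and Selplg and Fcrls in LPS versus Control.

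The comparison of LPS+Pilo with Control set the combined treatment against untreated cells. It shares the Control libraries with the comparison of LPS with Control. It called 2 of the 5 tested members, Cx3cr1 and Fcrls, both lower, with a median difference of 0.21 against 0.02 over all genes tested. In this comparison 10.2% of all genes were called, 4.85% higher and 5.3% lower. At an unadjusted p under 0.05 there were 4 of the 5 (24% of all genes), and the groups did not overlap in 5 of the 5 (30.5% of all genes), Fcrls included, which passed the filter through Control.

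Cx3cr1 averaged 1.13 ± 0.0819 TPM in LPS+Pilo and 3.42 ± 1.01 TPM in Control (SD, n = 3 each) and fell by 1.03 ± 0.18 (SE; limma, adjusted p = 0.00582). All 3 LPS+Pilo libraries were below all 3 Control libraries, which held for 15.6% of all genes in the lower direction. The call was kept in every one of its 16 alternatives (adjusted p 0.000849 to 0.0284), and without the high Control replicate 1 the difference was -0.85. Fcrls averaged 0.443 ± 0.101 TPM in LPS+Pilo and 1.78 ± 0.567 TPM in Control and fell by 0.93 ± 0.17 (limma, adjusted p = 0.00794; 0.0125 with every gene above 0 tested).

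Mertk averaged 498 ± 55.3 TPM in LPS+Pilo and 272 ± 118 TPM in Control. Every LPS+Pilo library was above every Control library, which held for 14.9% of all genes in the higher direction. The difference of 0.95 ± 0.28 did not pass (limma, adjusted p = 0.063). Without Control replicate 2 it was 1.28 with an adjusted p of 0.0078 (range 0.0078 to 0.185 over the alternatives). Selplg (0.21 ± 0.08, adjusted p = 0.123) and Tmem119 (0.26 ± 0.13, adjusted p = 0.275) also stood without overlap above Control and did not pass.

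Relative to the mean, Control libraries varied more than treated ones for each of the 5 tested members. For Selplg the SD itself was smaller in Control (2.23 TPM) than in LPS (2.6 TPM). The coefficient of variation of Mertk was 11.1% in LPS+Pilo, 26.6% in LPS and 43.2% in Control, and that of Cx3cr1 was 7.24% in LPS+Pilo, 10.2% in LPS and 29.5% in Control. Fcrls varied by 22.8% in LPS+Pilo, 14.9% in LPS and 31.8% in Control, and Selplg by 1.79% in LPS+Pilo, 3.90% in LPS and 4.14% in Control. Tmem119 varied by 1.45% in LPS+Pilo, 6.48% in LPS and 14.1% in Control. These spreads rest on 3 libraries each and were not tested.

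Tmem119 and Cx3cr1 were neighbours in level, and their order within a library differed by group. The ratio of Cx3cr1 to Tmem119, in which any scaling of the whole library cancels, was 0.404, 0.386 and 0.341 in LPS+Pilo, 0.967, 1.06 and 0.944 in LPS and 1.67, 1.26 and 1.38 in Control. Cx3cr1 was thus the lower of the pair in all LPS+Pilo libraries and the higher in all Control libraries, while in LPS the 2 genes were close. The ratio of Cx3cr1 to Selplg averaged 0.0181 ± 0.00162 in LPS+Pilo, 0.0437 ± 0.00435 in LPS and 0.0636 ± 0.0197 in Control (SD, n = 3 each). That of Tmem119 to Selplg averaged 0.0480 ± 0.000411 in LPS+Pilo, 0.0442 ± 0.00392 in LPS and 0.0436 ± 0.00702 in Control. A ratio within a library shows unequal change of its 2 genes, and no test was run on it.

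**Figure D4:**
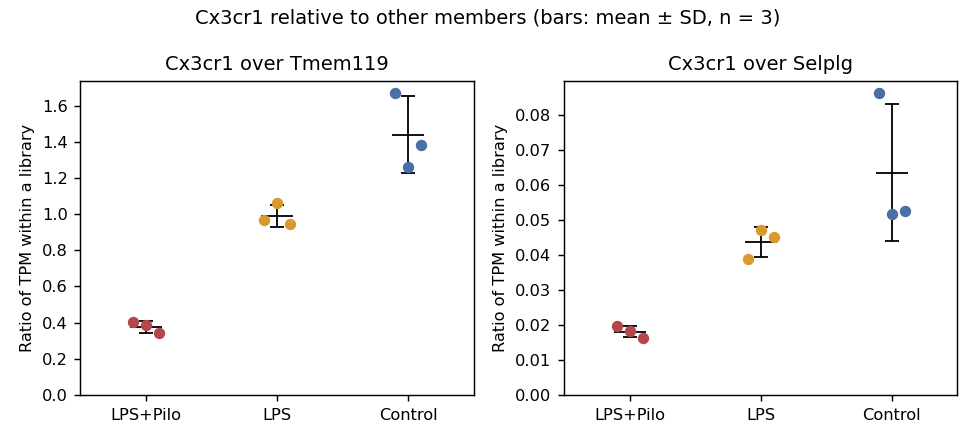
Ratio of Cx3cr1 TPM to Tmem119 TPM (left) and to Selplg TPM (right) within each library, by group, with 1 point per library and bars for the mean ± SD (n = 3). The LPS+Pilo points lie lowest in both panels, at 0.341 to 0.404 on the left, and the groups do not overlap.

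In GENCODE M21 the annotated span of Cx3cr1 overlaps 9 other genes, 3 of them on its strand. The abundant ones are Gorasp1 and Csrnp1 on the same strand and Wdr48 on the opposite one. Gorasp1, a Golgi stacking protein gene, averaged 18 ± 0.773 TPM in LPS+Pilo, 18.1 ± 0.454 TPM in LPS and 19.9 ± 0.542 TPM in Control, and was not called in any comparison. Csrnp1, a nuclear protein gene, averaged 15.9 ± 1.41 TPM in LPS+Pilo, 13.1 ± 3.05 TPM in LPS and 8.56 ± 1.02 TPM in Control, and rose with LPS+Pilo against Control by 0.82 ± 0.17 (limma, adjusted p = 0.0126), opposite in direction to Cx3cr1. Wdr48, which encodes a cofactor of deubiquitinating enzymes, was not called in any comparison. Reads from these genes may have been assigned to Cx3cr1 or the reverse, and that was not tested.

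The genes whose pattern over the 9 libraries was most like that of a called member were taken from the tested genes with an established symbol and a mean of at least 5 TPM (7137, or 7136 for Selplg), by Pearson correlation of log2(TPM + 1). The points share the 3 groups, so these correlations describe the pattern only. For Cx3cr1 they were Cd180 (0.977) and Lpl (0.954). For Fcrls they were Ctns (0.976), D2hgdh (0.974) and Cnnm3 (0.972), and for Selplg Itga5 (0.982), Hmga2 (0.969) and Slc15a3 (0.966).

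A wider list of 32 further homeostatic microglia genes was in the table in full, and 22 passed the filter. The other 10 averaged under 0.5 TPM, among them P2ry12, the ADP receptor gene that marks resting microglia (0 to 0.4 TPM), and the fructose transporter gene Slc2a5 (0 to 0.22 TPM). Upk1b was listed at 0 in all 9 libraries. The abundant genes of the list were the lysosomal protease gene Ctsd (1711.51 to 2631.28 TPM) and the protease inhibitor gene Cst3 (1182.93 to 1842 TPM), which macrophages of many tissues also express. The summed level of the list was 3385 to 3710.5 TPM in LPS+Pilo, 3783 to 3954 TPM in LPS and 4900.1 to 4984 TPM in Control. Most of that sum was Ctsd and Cst3, so it is mainly a measure of these genes.

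With LPS against Control, 6 of the 22 were lower, none was higher and 16 missed the threshold, with a median difference of -0.25 against 0.07 over all genes tested and 3.64% of all genes called lower. Ltc4s, which encodes leukotriene C4 synthase, fell by 1.45 ± 0.25, to 5.56 ± 1.70 TPM in LPS against 17.2 ± 6.52 TPM in Control (limma, adjusted p = 0.00777). The complement gene C1qc fell by 1.25 ± 0.20, and C1qb by 0.76 ± 0.17. C1qb missed the threshold with no filter on low values (adjusted p = 0.0573) or with only the 2 groups compared in the fit (0.0547), and without Control replicate 2 (0.0811) or 3 (0.0993) or LPS replicate 1 (0.0887), with limma adjusted p from 0.015 to 0.0993 over the alternatives. The integrin gene Itgb5 fell by 0.50 ± 0.09, to 26.4 ± 0.848 TPM in LPS against 37.7 ± 1.39 TPM in Control, and missed the threshold without Control replicate 3 (0.0521; range 0.00325 to 0.0521). Cst3 was at 1262 ± 65.3 TPM in LPS and 1765 ± 78.8 TPM in Control, and was called lower.

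With LPS+Pilo against Control, 1 of the 22 was higher, 9 were lower and 12 did not pass, where 4.85% of all genes were called higher and 5.3% lower, with a median of -0.46 against 0.02 over all genes tested. C1qc fell by 1.36 ± 0.20, Ltc4s by 1.00 ± 0.25 and the ribonuclease gene Rnase4 by 0.94 ± 0.18. Ltc4s missed the threshold in 5 of 9 fits that each left out 1 library, namely without Control replicate 1 (limma adjusted p = 0.0574) or 3 (0.0524) or LPS+Pilo replicate 1 (0.1), 2 (0.0991) or 3 (0.102; range 0.0152 to 0.102 over the alternatives). Csf1r, the receptor on which microglial survival depends, fell to 36.6 ± 2.29 TPM in LPS+Pilo, against 58.3 ± 6.47 TPM in Control (adjusted p = 0.00489). Bin1, an endocytic adaptor gene, was the one higher gene (0.33 ± 0.08, limma adjusted p = 0.0276). In 8 of 17 alternatives 0 genes of this list were called higher, so that the call of Bin1 was lost there.

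With LPS+Pilo against LPS, 0 of the 22 passed in limma, with 1 higher and 5 lower at an unadjusted p under 0.05 (6.76% of all genes in either direction) and a median of -0.18 against -0.05 over all genes tested.

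**Figure D5:**
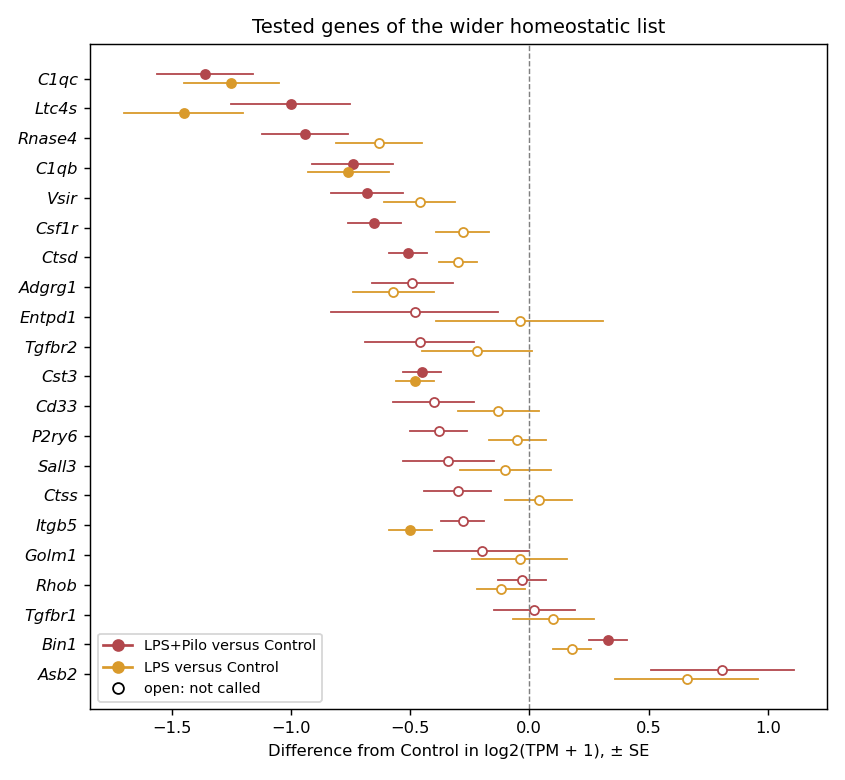
Differences from Control in log2(TPM + 1) ± SE (horizontal axis) of tested genes of the wider homeostatic list, for LPS+Pilo (red) and LPS (yellow), ordered by LPS+Pilo; filled points are called. Most points lie left of 0, with C1qc at -1.36 with LPS+Pilo and -1.25 with LPS, and Bin1 is the only gene called to the right of 0.

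Of 16 genes of transcription factors of the microglial lineage, Sall1 among them, 14 were tested and 2 averaged under 0.5 TPM. With LPS against Control 0 were higher and 4 lower, where 4.12% of all genes were called higher and 3.64% lower, with a median of -0.17 against 0.07 over all genes tested. Among them were Bhlhe41 (-0.83 ± 0.20), Cebpa (-0.82 ± 0.15) and Tal1 (-0.59 ± 0.12), and these 3 lost their call without Control replicate 3 (limma adjusted p 0.0571 to 0.106). Over all 17 alternatives Bhlhe41 lost it in 10, with adjusted p up to 0.106, and kept it in only 1 of the 9 fits that left out a library, the one without Control replicate 2. Tal1 lost it in 4 of the 17, also without LPS replicate 1 (0.0644) or 2 (0.0503), and Cebpa in 1. The count ran from 0 to 4 when single libraries were left out. With LPS+Pilo against Control the same 4 genes were lower (5.3% of all genes; median -0.23 against 0.02), with Bhlhe41 at -1.11 ± 0.20, although Cebpa lost its call in 7 of 17 alternatives (adjusted p up to 0.127). With LPS+Pilo against LPS 0 of the 14 passed (0 higher and 2 lower at an unadjusted p under 0.05 in limma, 6.76% of all genes in either direction). Irf8, a factor that microglia need to develop, and Spi1 were not called in any comparison. Both lay below Control without overlap with LPS+Pilo (15.6% of all genes in that direction). The differences were -0.27 ± 0.09 for Irf8 (limma, adjusted p = 0.0878) and -0.18 ± 0.06 for Spi1 (adjusted p = 0.117). Spi1 also lay below LPS without overlap (6.63% of all genes). Sall3, a relative of Sall1, was at 1.44 to 2.93 TPM and was not called.

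Of 20 genes of ligands and partners of the members, 10 were tested. The bridging ligand gene Gas6 was listed at 0 in all 9 libraries and Pros1, the protein S gene, reached at most 0.13 TPM, beside the abundant Mertk. The related receptor gene Axl was at 0.23 to 1.3 TPM and Tyro3 at 0 to 0.01 TPM. Cx3cl1, the fractalkine gene, was at 0.06 to 0.78 TPM. Tgfb1 was at 193.35 to 261.9 TPM, the receptor gene Tgfbr1 at 0.72 to 1.53 TPM and the receptor gene Tgfbr2 at 6.89 to 15.06 TPM. Gas6, Pros1, Axl, Tyro3 and Cx3cl1 did not pass the filter and were not tested. Tgfb1, Tgfbr1 and Tgfbr2 were not called in any comparison. In Control, Cx3cl1 was at 0.7, 0.78 and 0.45 TPM, and its highest treated value was 0.35 TPM, in LPS replicate 2. Axl was at 0.87, 1.11 and 0.78 TPM in Control and 0.23, 0.29 and 0.38 TPM in LPS. Its LPS+Pilo values of 0.85, 1.3 and 0.55 TPM overlapped those of Control.

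In that list 0 genes were higher and 4 lower with LPS+Pilo against Control (4.85% and 5.3% of all genes), with a median of -0.15 against 0.02 over all genes tested. With LPS against Control 1 was higher and 3 were lower (4.12% and 3.64% of all genes), with a median of -0.11 against 0.07. Tyrobp was at 691 ± 30.9 TPM in LPS+Pilo, 839 ± 35.6 TPM in LPS and 1192 ± 90.2 TPM in Control, lower than Control in both treated groups (-0.78 ± 0.08 with LPS+Pilo and -0.50 ± 0.08 with LPS). So were Nrros (-0.63 ± 0.09 with LPS+Pilo and -0.44 ± 0.09 with LPS), which anchors latent TGF-beta on microglia, and the dying-cell bridging gene Mfge8 (-0.42 ± 0.08 with LPS+Pilo and -0.33 ± 0.08 with LPS). Csf1, a ligand of Csf1r, fell by 1.15 ± 0.17 with LPS+Pilo. The call of Mfge8 with LPS was lost without any one of the 9 libraries (limma adjusted p 0.0548 to 0.167), as was that of Nrros without Control replicate 3 (0.0739). The one higher gene with LPS was Il34, the other Csf1r ligand (0.68 ± 0.15), which lost its call in 12 of 17 alternatives.

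Markers of other cell classes were read beside these values. Of 12 border macrophage genes, which mark the macrophages of the meninges and vessels, 6 were tested and the summed level was 118 to 141 TPM in LPS+Pilo, 112 to 138 TPM in LPS and 112 to 125 TPM in Control. Cd163 and Cd209f were at 0 in all 9 libraries and Mrc1 reached at most 0.06 TPM. The most abundant genes of the list were Pf4 (53.46 to 87.66 TPM) and Folr2 (16.61 to 38.52 TPM), and neither was called in any comparison. Pf4 lay below Control without overlap with LPS (13.1% of all genes in that direction) and with LPS+Pilo (15.6%). Siglec1 (1.18 ± 0.24 with LPS and 1.09 ± 0.24 with LPS+Pilo) and Stab1 (0.93 ± 0.16 with LPS and 0.96 ± 0.16 with LPS+Pilo) rose against Control, and Ccr1 rose with LPS+Pilo (0.60 ± 0.16). The call of Siglec1 was lost in 5 of 17 alternatives with LPS and in 6 of 17 with LPS+Pilo, and that of Ccr1 in 9 of 16 (adjusted p up to 0.134). The summed level of 8 neuronal genes was 394 to 468 TPM in LPS+Pilo, 318 to 411 TPM in LPS and 169.6 to 372 TPM in Control, with Snap25, Syt1, Rbfox3, Stmn2 and Slc17a7 at 0 in all 9 libraries. Nearly all of that sum was Tubb3, which was not called in any comparison. Syn1, a synaptic vesicle protein gene, was at 11.6 ± 0.944 TPM in LPS+Pilo, 11.4 ± 2.64 TPM in LPS and 5.39 ± 0.361 TPM in Control, and rose against Control with LPS+Pilo (0.98 ± 0.17; limma, adjusted p = 0.0059) and with LPS (0.93 ± 0.17, adjusted p = 0.00929). Vwf, the von Willebrand factor gene, fell against Control with LPS+Pilo (-0.69 ± 0.17, adjusted p = 0.0275; lost in 6 of 16 alternatives, with adjusted p up to 0.117) and with LPS (-1.03 ± 0.17, adjusted p = 0.00546). Among the pan-myeloid genes Itgam, Cd14 and Lyz2 rose with LPS by 1.58 ± 0.26, 1.28 ± 0.15 and 0.74 ± 0.15, and Laptm5 fell by 0.85 ± 0.09. Lyz2 lost its call in 4 of 17 alternatives, with no filter on low values (limma adjusted p = 0.0534) and without Control replicate 2 (0.0507) or 3 (0.0631) or LPS replicate 2 (0.0751). With LPS+Pilo it was at 200.2 ± 28.5 TPM against 203 ± 37.9 TPM in Control (-0.01 ± 0.15, adjusted p = 0.976). The direct difference of Lyz2 between LPS+Pilo and LPS, -0.76 ± 0.15, did not pass (limma, adjusted p = 0.271). The part of any of these in the values of the members was not tested.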

How the data were processed

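Per the labels' protocols, TRIzol was used for extraction and a TruSeq RNA kit for the libraries. The authors deposited a table of TPM for 55906 genes in 9 libraries, each summing to about 1000000, with values to 2 decimals. The submitters' processing notes name fastp 0.19.5, STAR 2.7.1a, DESeq2 1.24.0 and GRCm39; their use for each step is not given in the sources used here. Depth is unknown, so no counting interval is given. Symbols were matched by Ensembl ID to GENCODE M21 on GRCm38 (52081 genes).

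Genes reaching 1 TPM in 3 or more libraries were fitted with limma 3.58.1 (R 4.3.3) on log2(TPM + 1), all 9 libraries in 1 fit with a variance trend and Benjamini-Hochberg adjustment over all genes tested. The script was tested on simulated data. Alternatives were the pseudocount, filters, scalings, the libraries in the fit, a replicate block, no variance trend and leaving out each library. The members and gene lists were chosen with earlier results of these data known. Named genes were all members, at most 4 called genes per list and comparison by size, genes at 0, and the 3 genes most correlated with each called member. Cst3, Csf1r and Bin1 values, list genes named for their level or role, and genes overlapping Cx3cr1 were added after their values were seen. Some genes that the rule names are not reported here.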

Additional observations from a re-analysis of the deposited data

How the results depend on the processing

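Each comparison was recomputed under 17 alternatives. Of LPS versus Control, which called 874 genes, 1516 were called under quantile normalization, 486 with only the groups compared in the fit, and 414 to 1020 without single libraries. Of LPS+Pilo versus Control (1143 genes), 1726 were called under quantile normalization and 642 to 1286 without single libraries. Of LPS+Pilo versus LPS (5 genes), 1 was called with no filter, with a mean of at least 5 TPM, under quantile normalization and with a replicate block, 2 under median-ratio scaling, 3 with only the groups compared or no variance trend, and 0 to 6 without single libraries. Its split of 1 higher and 4 lower was 1 and 0 under quantile normalization and 1 and 1 under median-ratio scaling.

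Of the members, LPS versus Control called 2, but 1 with a mean of at least 5 TPM, median-ratio scaling, only the groups compared, a replicate block or no variance trend, and 0 to 2 without single libraries. LPS+Pilo versus Control called 2, but 0 with a mean of at least 5 TPM, a filter that left out Cx3cr1 and Fcrls, and 1 to 2 without single libraries. LPS+Pilo versus LPS called 0 members in all 17. The direction turned for Cx3cr1 with LPS (0.02 without Control replicate 1; -0.27 to 0.02 without single libraries), and in LPS+Pilo versus LPS for Fcrls (0.02 under quantile normalization, 0.00 without LPS+Pilo replicate 3; -0.08 to 0.00 without single libraries) and Tmem119 (-0.02 without LPS replicate 1; -0.02 to 0.04 without single libraries), all uncalled; the cause was not tested. Of 41 named results of other genes 23 kept their call throughout, 18 lost it in at least 1 alternative and 0 turned round.

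Correlations of deviations between libraries with the same replicate number ran from -0.225 to 0.165, with 0.165 and 0.158 for LPS and Control replicates 1 and 3. Libraries with different numbers ran further, from -0.37 (LPS replicate 3 with Control replicate 1) to 0.3 (LPS replicate 3 with Control replicate 2). The numbers were thus not taken as pairs. With the replicate block 808 genes were called in LPS versus Control and 1064 in LPS+Pilo versus Control, Selplg lost its call with LPS (adjusted p = 0.0755), and not every library correlated best with its own number. Unknown depth and 2 decimals limit the members under 0.1 TPM.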
